A study of Mus musculus with 64 samples.

Results

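The 9 genes *Nanos1*, *Nanos2*, *Nanos3*, *Dnd1*, *Dazl*, *Boll*, *Lin28a*, *Lin28b* and *Pum2* encode RNA-binding proteins of the male germ line. They were picked by name from the 26385 genes listed for each library, and all 9 were found. Their RNA levels were followed in 47 mouse RNA-Seq libraries, each of 1 mouse, from a study of MORC1, a nuclear ATPase needed for transposon repression in male germ cells. The labels do not say which mice were littermates, so p-values measure the spread between the mice sampled.

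Sorted germ cells gave 20 libraries of the *Morc1* line. The *Morc1* tg allele carries a tyrosinase transgene and lacks part of the ATPase domain. Homozygotes (*Morc1* tg/tg, labelled Morc1 KO) were compared with heterozygotes (*Morc1* tg/+, labelled Morc1 het) at embryonic days E16.5 (2 and 2 libraries) and E18.5 (2 and 2), and at postnatal days P2.5 (2 and 3) and P10.5 (3 and 4). Cells up to P2.5 were taken as GFP-positive cells of mice that also carried the *Oct4-IRES-eGfp* reporter on a mixed background. Cells at P10.5 were taken by low side scatter, high EPCAM and absence of the MHC class I protein H2-Kq. Whole testis gave 27 libraries. The *Morc1* line, kept on FVB/N, gave 3 *Morc1* tg/tg, 2 *Morc1* tg/+ and 1 *Morc1* +/+ testes at P10.5, with a preliminary pair (*Morc1* tg/+ and *Morc1* +/+), and 3 *Morc1* tg/tg and 3 *Morc1* tg/+ testes at P14.5. The *Dnmt3l* line gave 3 libraries each of *Dnmt3l* +/+, +/- and -/- testis at P10.5, and the *Miwi2* line 2 each of *Miwi2* +/- and -/-, labelled het and KO. DNMT3L is a cofactor of de novo DNA methylation, and MIWI2 a nuclear PIWI protein. The control groups other than +/+ thus all carried 1 mutant allele.

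The NANOS proteins are zinc finger repressors that bring the CCR4-NOT deadenylase to target mRNAs, and PUM2 is a PUMILIO protein, of the family that binds target mRNAs together with them. NANOS3 protects primordial germ cells, NANOS2 holds male germ cells out of meiosis and maintains spermatogonial stem cells, and DND1 is a partner of NANOS2 whose loss removes germ cells or turns them into teratomas. DAZL and BOLL are members of the DAZ family, which promote translation. DAZL is needed for germ cells to become competent for meiosis and BOLL for spermatids. LIN28A and LIN28B bind the precursor of the let-7 microRNAs and block their maturation, and LIN28A marks undifferentiated spermatogonia.

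The sorted libraries held 2413679 to 14918478 reads on genes and the whole testis libraries 22509570 to 42137954. Levels are the deposited RPKM values, which scale reads to the exon length of the gene and to the mapped reads of the library, and differences between groups are log2 fold changes of edgeR fits over all genes. A gene was called at a Benjamini-Hochberg adjusted p under 0.05 over all genes tested. The targeted genes followed the labels in the *Morc1* and *Dnmt3l* lines. *Morc1* fell by 1.05 to 2.25 on the log2 scale in *Morc1* tg/tg groups other than E18.5, where its log2 fold change of -2.32 was not called (adjusted p = 0.139). *Dnmt3l* fell by 3.93. *Piwil4*, which encodes MIWI2, was at 6.65 and 7.01 RPKM in the libraries labelled *Miwi2* +/- and at 10.7 and 11.5 in those labelled *Miwi2* -/-, which goes against a loss of its RNA. Germ cell markers were present in all sorted libraries (summed level of 10 genes, 303 to 866 RPKM). The summed level of 9 Sertoli cell markers was 28.3 to 128 RPKM there and 2009 to 5254 RPKM in whole testis. *Sox9*, a Sertoli gene, was at 13.9 to 19.14 RPKM in the sorted E18.5 libraries and at 2.64 to 9.46 RPKM in the other sorted ones. The 9 markers did not share this pattern. Their sum at E18.5 was 28.3 to 47.5 RPKM in *Morc1* tg/+ and 44.1 to 53.0 in *Morc1* tg/tg. *Amh*, another Sertoli gene, was at 0 to 0.544 and 0 to 6.21 RPKM in the same order.

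First, the course of the 9 genes was described in *Morc1* tg/+ germ cells from the embryo to P10.5. The stage of the highest mean level differed between the genes. *Dnd1* was highest at E16.5, *Nanos3* and *Lin28a* at P2.5, and *Nanos1*, *Lin28b* and *Pum2* at P10.5, while *Dazl* had the highest level per length of the 9 at every stage. Between E16.5 and E18.5, 3 of the 9 genes were called, against 18.7% of all 16890 genes tested. From E18.5 to P2.5 it was 3 of 9 against 39.1%, and from P2.5 to P10.5 it was 4 of 9 against 27.6%. The median log2 fold changes of the 9 genes in these steps were -0.09, 0.79 and -0.01, and those of all genes -0.07, -0.07 and 0.02. The last step also changed the gate and the background, so age and sorting cannot be told apart there. The summed Sertoli cell markers were at 35.3 to 38.2 RPKM in the P2.5 controls and 76.6 to 128 RPKM in the P10.5 controls, and 4 of the 9 rose, a change whose part in the results was not tested. In that step 2 of 4 endothelial markers (median -1.80) and 1 of 3 macrophage markers fell, 1 of 2 blood cell markers rose, and 1 of 6 peritubular markers rose and another fell. Between E18.5 and P2.5, 4 of 6 peritubular, 2 of 4 endothelial, 2 of 5 Leydig and 1 of 2 blood cell markers fell and none rose. Of 9 Sertoli cell markers 1 rose and 2 fell in that step (median 0.47). *Sox9* was at 16.3 to 17.8 RPKM in the E18.5 controls and 2.64 to 3.66 in the P2.5 controls. *Amh* went the other way, at 0 to 0.544 and 4.69 to 8.16 RPKM, and the Sertoli sum in the E18.5 controls was 28.3 to 47.5 RPKM. The part of all these markers was not tested either. Germ cell markers changed as well, with 2 of 10 higher and 4 lower in the first step (median -0.49), 3 higher and 1 lower in the second (0.22) and 2 higher and 5 lower in the last (-0.41). Their summed level in the controls was 680 to 866 RPKM at E16.5, 399.6 to 442 at E18.5, 498 to 620 at P2.5 and 313 to 353 at P10.5, and their part was not tested.

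Of the *Nanos* genes, *Nanos1* rose across birth. Its levels were 1.28 and 1.75 RPKM at E16.5, 1.61 and 0.363 RPKM at E18.5, 3.51, 6.02 and 3.48 at P2.5 and 6.83, 8.46, 7.42 and 7.68 at P10.5. All P2.5 libraries lay above all embryonic ones and all P10.5 libraries above all P2.5 ones. The rise was 2.03 on the log2 scale from E18.5 to P2.5 (SE 0.43, adjusted p = 0.00173) and 1.08 from P2.5 to P10.5 (SE 0.31, adjusted p = 0.0173). The first of these was 3.30 without E18.5 *Morc1* tg/+ replicate 1 and 1.38 without replicate 2. Each of these fits left 1 library at E18.5, so their spread came from the other stages. *Nanos2* was low at all stages. It had 1.19 and 1.83 RPKM at E16.5, 0.837 and 0 RPKM at E18.5, 2.63, 1.30 and 2.91 at P2.5 and 1.63, 2.10, 2.14 and 1.47 at P10.5. At E18.5, the libraries held 8 and 0 *Nanos2* reads, and edgeR called no step. The step to P2.5 was called by DESeq2 (2.30 on the log2 scale, adjusted p = 0.01375), and by edgeR without E18.5 *Morc1* tg/+ replicate 1, where the remaining library held 0 reads (0.00362, range 0.00362 to 0.266 over 9 alternatives). The log2 fold change was 2.34 with all libraries and 1.35 without E18.5 *Morc1* tg/+ replicate 2, and the 8.32 fitted without replicate 1 is no bound, since it depends on the prior count. *Nanos3* varied widely between libraries. It measured 0.783 and 0.980 RPKM at E16.5, 3.10 and 8.00 RPKM at E18.5, 19.9, 6.33 and 7.91 at P2.5 and 5.03, 2.87, 5.08 and 2.46 at P10.5. The first step was called (2.71 on the log2 scale, SE 0.82, adjusted p = 0.0295), but it rested on few reads, and the log2 fold change was 1.70 (adjusted p = 0.224) without E18.5 *Morc1* tg/+ replicate 2, 2.65 (0.150) without E16.5 replicate 1 and 2.77 (0.150) without E16.5 replicate 2, within a range of adjusted p of 0.001398 to 0.224 over 8 alternatives. From P2.5 to P10.5, all *Nanos3* levels were lower at the later age, with a log2 fold change of -1.28 (SE 0.57, adjusted p = 0.11), which DESeq2 called (0.0358, range 0.0358 to 0.482 over 11 alternatives) and which was -0.59 without P2.5 *Morc1* tg/+ replicate 1.

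*Dnd1* had the largest called step of the 9. It stood at 26.8 and 29.7 RPKM at E16.5, at 4.61 and 2.08 RPKM at E18.5, at 13.2, 9.84 and 11.2 at P2.5 and at 8.02, 8.38, 6.57 and 6.29 at P10.5. No stage overlapped another, and the low point was at E18.5. *Dnd1* fell by 3.10 on the log2 scale from E16.5 to E18.5, or 8.55-fold (SE 0.31, adjusted p = 6.99e-06), and then rose by 1.61 to P2.5 (SE 0.29, adjusted p = 0.000407). Its gene overlaps *Wdr55* on the other strand by 38 bases, and HTSeq by default counts reads on the strand of the gene. The TruSeq v2 kit does not mark strand, so in whole testis reads of this overlap cannot be told apart. *Pum2* had a higher mean level at each later stage, with 9.78 and 10.95 RPKM at E16.5, 13.0 and 11.3 RPKM at E18.5, 14.4, 16.53 and 18.48 at P2.5 and 21.3, 18.2, 19.6 and 19.7 at P10.5. The P2.5 and P10.5 ranges overlapped from 18.2 to 18.48 RPKM, and the last step was called (0.54 on the log2 scale, SE 0.10, adjusted p = 0.000623). The earlier steps were 0.25 each and not called by edgeR (adjusted p = 0.2001 and 0.0961). DESeq2 called the first (0.0214), and edgeR the second without P2.5 *Morc1* tg/+ replicate 1 (0.0137, range 0.0137 to 0.248 over 9 alternatives).

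Among the DAZ family, *Dazl* measured 154 and 208 RPKM at E16.5, 304 and 280 RPKM at E18.5, 264, 312 and 340 at P2.5 and 257, 259, 200 and 199 at P10.5. It rose by 0.72 on the log2 scale from E16.5 to E18.5 (SE 0.14, adjusted p = 0.0022), and the later steps were not called. *Boll* went from 4.56 and 3.62 RPKM at E16.5 through 6.65 and 5.53 at E18.5 and 6.27, 11.8 and 16.4 at P2.5 to 12.4, 12.9, 11.2 and 11.3 at P10.5. None of its steps was called by edgeR, and its P2.5 libraries overlapped the E18.5 and P10.5 levels. The step from E18.5 to P2.5 was 0.74 on the log2 scale (adjusted p = 0.0597). Without P2.5 *Morc1* tg/+ replicate 1, which was the least deep control at 2638278 reads, that step was 1.06 (adjusted p = 0.00247, range 0.00247 to 0.232 over 9 alternatives), and it also passed by DESeq2 (0.0415) and without a filter on low counts (0.0468).

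The *Lin28* genes took different courses. *Lin28a* was at 9.59 and 13.7 RPKM at E16.5, 13.1 and 5.40 RPKM at E18.5, 30.2, 24.4 and 24.3 at P2.5 and 10.6, 12.7, 16.0 and 13.6 at P10.5, so that P2.5 stood above every other stage. It rose by 1.37 on the log2 scale to P2.5 (SE 0.27, adjusted p = 0.000938, and 1.99 or 0.93 without E18.5 replicate 1 or 2) and fell by 0.70 to P10.5 (SE 0.21, adjusted p = 0.0193). *Lin28b* stayed between 4.06 and 6.27 RPKM in all libraries up to P2.5 and was at 10.2, 10.1, 10.51 and 10.8 at P10.5. Its last step was 1.17 on the log2 scale (SE 0.16, adjusted p = 6.25e-05). The P10.5 step of *Nanos1* was no longer called without P2.5 replicate 1 (adjusted p = 0.0546), P2.5 replicate 3 (0.0839) or P10.5 replicate 2 (0.0573), and that of *Lin28a* without P2.5 replicate 1 (0.07765) or P10.5 replicate 1 (0.0672). Over 11 alternatives the adjusted p was 0.00226 to 0.0839 for *Nanos1* and 0.001625 to 0.07765 for *Lin28a*.

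**Figure D1:**
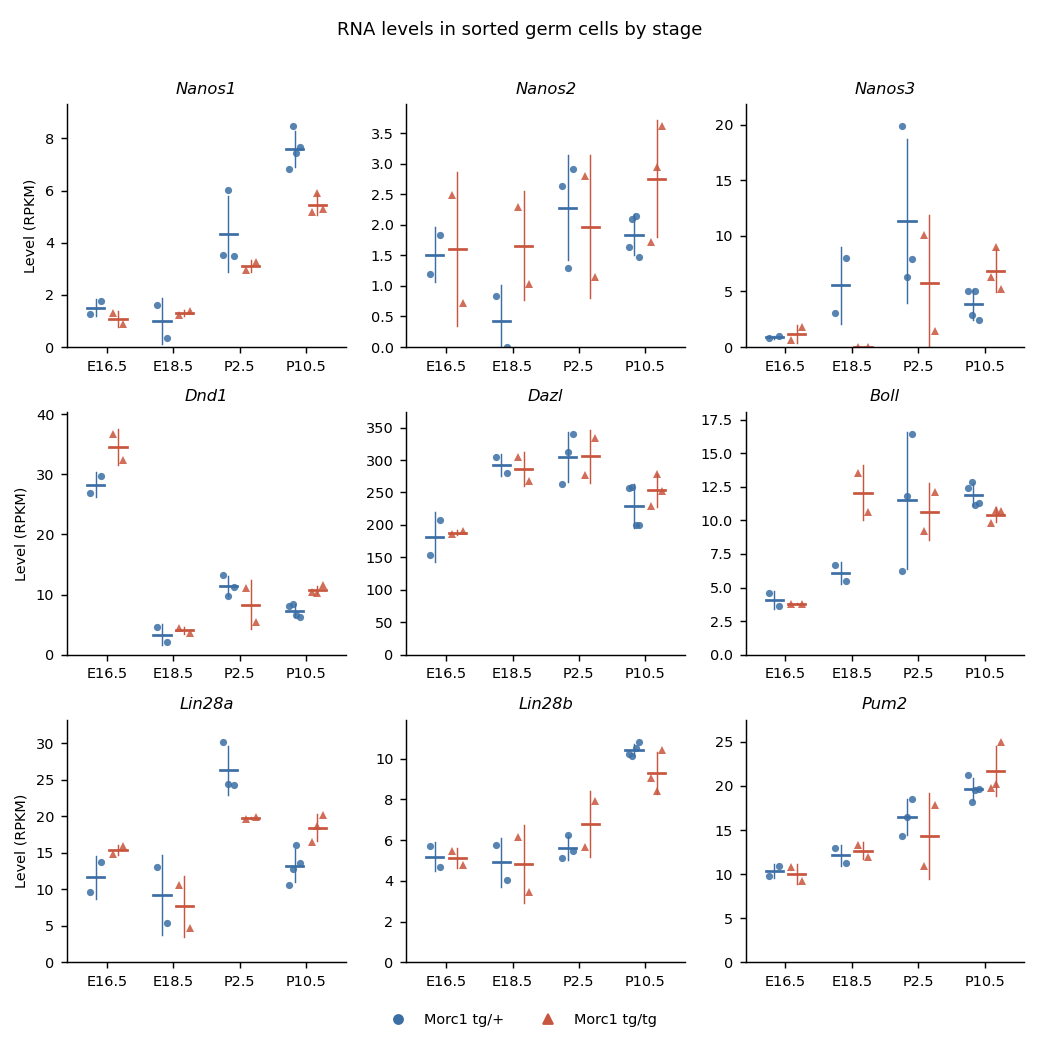
RNA level in RPKM (linear axes from 0) of the 9 genes in sorted *Morc1* germ cells, with the 4 stages on the horizontal axis. Points are libraries, *Morc1* tg/+ in blue and *Morc1* tg/tg in red, with the mean and SD of each group as lines. *Dnd1* drops to 2.08 to 4.61 RPKM at E18.5, *Lin28a* stands highest at P2.5 in *Morc1* tg/+, and *Nanos3* has no read in *Morc1* tg/tg at E18.5. In *Morc1* tg/tg, the *Lin28a* levels at P2.5 and P10.5 overlap.

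The genes that work with these proteins were counted in the same steps, from fixed lists, to be read against the 18.7%, 39.1% and 27.6% of all genes called in the respective steps. Of 14 measured genes of the CCR4-NOT deadenylase and its BTG/TOB adaptors, 7 rose and 2 fell from E16.5 to E18.5 (median log2 fold change 0.40), among them the catalytic subunit *Cnot6l* (1.09) and the adaptor *Tob1* (1.22). From E18.5 to P2.5, 4 rose and 3 fell (median 0.09), led by the adaptor *Btg2* (2.15) and the ubiquitin ligase *Cnot4* (-1.28). From P2.5 to P10.5, 4 rose and 2 fell (median 0.14). Of 14 genes of let-7 processing and reported let-7 targets, 7 rose and 1 fell in the first step (median 0.74), including the targets *Mycn* (2.42), *Igf2bp3* (1.69) and *Igf2bp1* (1.58) and the ubiquitin ligase *Trim71* (1.55). In the second step 5 rose and 3 fell (median 0.16), with *Igf2bp3* at -1.48. In the last step 1 rose and 6 fell (median -0.16), including *Igf2bp2* (-1.60), *Hmga2* (-1.34), *Trim71* (-1.02) and *Igf2bp1* (-0.91). Of 20 other germ cell RNA-binding genes, 9 rose and 2 fell in the first step, 3 rose and 7 fell in the second, and 4 rose and 2 fell in the last, the last count being near the share of all genes. The last included *Gm1564*, the symbol of *Meioc* in the files (1.76), and *Ythdc2* (1.06), which together help meiosis to start.

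Next, the effect of MORC1 loss was measured at each stage. In sorted germ cells up to P2.5, none of the 9 genes was called by edgeR with each stage fitted by itself. At E16.5, the count was 0 of 9 against 0.421% of all genes, with 1 of 9 at an unadjusted p under 0.05 and 0 by DESeq2. At E18.5 it was 0 of 9 against 0.0416%, with 2 at an unadjusted p under 0.05 and 1, *Boll*, by DESeq2 under the dispersion trend chosen. At P2.5 it was 0 of 9 against 0.0486%, with 0 at an unadjusted p under 0.05 and 0 by DESeq2. The median log2 fold changes of the 9 genes were -0.02, 0.17 and -0.22, and those of all genes -0.01, 0.02 and -0.02. The E18.5 libraries were among the least deep, with 2698197 to 4007833 reads, and called few genes of any kind.

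Some values at these stages were large for their groups. *Nanos3* had 15 and 45 reads in the E18.5 *Morc1* tg/+ libraries and 0 in both *Morc1* tg/tg libraries. Its level was at least 14.1-fold lower in *Morc1* tg/tg, taking 3 counts over the group as the limit that 0 reads allow (adjusted p = 0.737). This bound covers counting error only, and, in a comparison added after seeing the data, it was at least 6.97-fold against *Morc1* tg/+ replicate 1 alone and at least 21.5-fold against replicate 2 alone. *Boll* at E18.5 was at 6.65 and 5.53 RPKM in *Morc1* tg/+ and 13.5 and 10.6 in *Morc1* tg/tg, with no overlap and a log2 fold change of 1.09 (SE 0.37, adjusted p = 0.685). Both genes were called when all 20 sorted libraries shared 1 estimate of the spread (adjusted p = 0.0141 for *Nanos3* and 0.0416 for *Boll*), and *Boll* also by DESeq2 (0.0402). That DESeq2 call depended on the local dispersion trend, which was chosen after the results of the parametric one had been seen. At E18.5 the summed marker level was 399.6 to 442 RPKM in *Morc1* tg/+ and 303 to 390 in *Morc1* tg/tg for 10 germ cell markers, and 140 to 149 against 75.8 to 114 RPKM for 4 pluripotency genes of prospermatogonia. Blood cell markers had overlapping sums, at 13.8 to 27.4 and 23.4 to 35.6 RPKM. Of these lists edgeR called no gene, with 3, 0 and 1 at an unadjusted p under 0.05 and 1, 0 and 1 by DESeq2, and their part in the *Nanos3* and *Boll* values was not tested. The ranges of adjusted p over 9 alternatives were 0.0141 to 0.9998 for *Nanos3* and 0.0402 to 0.9998 for *Boll*. At E16.5, *Lin28a* was at 9.59 and 13.7 RPKM in *Morc1* tg/+ and 14.9 and 15.9 in *Morc1* tg/tg (log2 fold change 0.33, SE 0.14, adjusted p = 0.467). At P2.5 it was at 30.2, 24.4 and 24.3 RPKM in *Morc1* tg/+ and 19.7 and 19.9 in *Morc1* tg/tg (-0.44, SE 0.21, adjusted p = 0.968). *Dnd1* was at 26.8 and 29.7 RPKM in *Morc1* tg/+ and 36.7 and 32.4 in *Morc1* tg/tg at E16.5, which was 0.21 on the log2 scale (SE 0.12, adjusted p = 0.659). Blood cell markers had sums of 5.65 to 18.48 RPKM in *Morc1* tg/+ and 32.6 to 34.0 in *Morc1* tg/tg at E16.5, where edgeR called 1 of 3 higher (the haemoglobin gene *Hbb-b1*), against 0.421% of all genes called. Leydig cell (5.25 to 5.71 and 5.94 to 9.44 RPKM), macrophage (5.20 to 6.75 and 8.88 to 9.21) and early meiosis sums (134 to 162 and 166 to 174) were also higher in *Morc1* tg/tg at that stage without overlap. The median log2 fold changes of the genes tested were 0.88, -0.61 and 0.12 in the same order. The sum and the median of the macrophage markers thus went opposite ways. At P2.5 the Sertoli cell sums were 35.3 to 38.2 RPKM in *Morc1* tg/+ and 48.7 to 53.3 in *Morc1* tg/tg. None of the last 4 lists held a call by edgeR (1, 1, 1 and 1 gene at an unadjusted p under 0.05, and 0, 0, 1 and 0 by DESeq2), and the part of the markers in the *Lin28a* and *Dnd1* values was not tested. For *Dazl*, the 95% intervals of the log2 fold change were -0.21 to 0.17 at E16.5, -0.18 to 0.35 at E18.5 and -0.30 to 0.25 at P2.5, the narrowest of the 9 at each stage. *Nanos2* at E18.5 had a log2 fold change of 2.12 (SE 2.43, adjusted p = 0.985), with both mutant libraries above both controls but few reads. At P2.5, *Nanos1* stood at -0.52 (SE 0.43, adjusted p = 0.996), with all mutant libraries below all controls. *Nanos3* stood at -1.02 there (SE 0.86, adjusted p = 0.996), with overlap.

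In germ cells at P10.5, 3 of the 9 genes were called between *Morc1* tg/tg and *Morc1* tg/+, against 12.2% of all genes. *Nanos1* fell and *Dnd1* and *Lin28a* rose. The background was 6.43% higher and 5.79% lower, and the median log2 fold change was 0.07 over the 9 genes and 0.00 over all. *Nanos1* was at 6.83, 8.46, 7.42 and 7.68 RPKM in *Morc1* tg/+ and at 5.17, 5.92 and 5.30 in *Morc1* tg/tg. It fell by 0.56 on the log2 scale (SE 0.12, adjusted p = 0.00264). *Dnd1* went from 8.02, 8.38, 6.57 and 6.29 RPKM to 10.49, 10.3 and 11.5, a rise of 0.48 (SE 0.14, adjusted p = 0.0205). *Lin28a* went from 10.6, 12.7, 16.0 and 13.6 RPKM to 16.6, 18.6 and 20.2, a rise of 0.40 (SE 0.11, adjusted p = 0.0217). For these 3 genes the mutant and control libraries did not overlap.

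The *Dnd1* and *Lin28a* calls were close to the threshold. *Dnd1* was not called without *Morc1* tg/+ replicate 3 (adjusted p = 0.0727), *Morc1* tg/+ replicate 4 (0.0709) or *Morc1* tg/tg replicate 3 (0.105), nor with a replicate block (0.0608). *Lin28a* was not called without *Morc1* tg/+ replicate 1 (0.116) or *Morc1* tg/tg replicate 3 (0.137). *Nanos1* kept its call without any 1 library (adjusted p 0.00208 to 0.0145). With the spread estimated over all 20 sorted libraries, the log2 fold changes were -0.57, 0.47 and 0.39 and none of the 3 was called (adjusted p = 0.668 for *Nanos1*, 0.619 for *Dnd1* and 0.685 for *Lin28a*). Over 12 alternatives the adjusted p was 2.68e-05 to 0.668, 0.004585 to 0.619 and 0.00112 to 0.685, in the same order.

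The other 6 genes were not called by edgeR at P10.5, and DESeq2 called 5 of the 9, adding *Boll* (adjusted p = 0.0348) and *Lin28b* (0.0477). *Nanos3* was at 5.03, 2.87, 5.08 and 2.46 RPKM in *Morc1* tg/+ and 6.34, 9.004 and 5.26 in *Morc1* tg/tg (0.75, SE 0.29, adjusted p = 0.0926), with all mutant libraries above all controls. *Boll* was at 12.4, 12.9, 11.2 and 11.3 against 9.77, 10.8 and 10.7 RPKM (-0.27, SE 0.11, adjusted p = 0.106, range 0.0348 to 0.931 over 12 alternatives), all mutant libraries below all controls. *Lin28b* was at 10.2, 10.1, 10.51 and 10.8 against 9.05, 8.39 and 10.4 RPKM (-0.24, SE 0.10, adjusted p = 0.111), and it became a called gene once *Morc1* tg/tg replicate 3 was left out (-0.36, adjusted p = 0.02575, range 0.02575 to 0.876 over 12 alternatives). *Nanos2* had a log2 fold change of 0.50 (95% interval -0.13 to 1.13), *Dazl* of 0.07 (-0.10 to 0.24) and *Pum2* of 0.06 (-0.11 to 0.24). *Nanos2*, with the fewest reads, had the widest interval.

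The surrounding programme in the same cells moved in part, where 6.43% of all genes were higher and 5.79% lower. Of 10 early meiosis genes, 7 fell and none rose (median log2 fold change -0.45), led by the cohesin *Rec8* (-1.20), the meiotic gatekeeper *Stra8* (-1.08) and *Mei1* (-0.92). Of 20 other germ cell RNA-binding genes, 2 rose and 3 fell, with *Gm1564* at -1.08, *Ybx2* at -0.58, *Msi2* at 0.39 and *Ythdc2* at -0.36. Of the 14 let-7 genes, *Igf2bp2* (0.69) and *Trim71* (0.51) rose and none fell. None of the 14 CCR4-NOT genes was called by edgeR (median 0.05), with 1 at an unadjusted p under 0.05 and 0 by DESeq2. Among 10 germ cell markers, 4 rose and 1 fell (median 0.23), with the stem cell genes *Gfra1* (0.47) and *Zbtb16* (0.41) higher and *Kit*, a gene of differentiating spermatogonia, lower (-0.55). Among 9 Sertoli cell markers, 3 fell and none rose (median -0.54), with 8 at an unadjusted p under 0.05 and 2 called by DESeq2. The 3 were *Cldn11*, *Wt1* and *Clu*, named after their values were seen. The summed level of the 9 was 76.6 to 128 RPKM in *Morc1* tg/+ and 50.8 to 104 RPKM in *Morc1* tg/tg. *Sox9* was at 3.89 to 7.29 and 4.00 to 6.39 RPKM. The part of these markers in the changes of *Nanos1*, *Dnd1* and *Lin28a* was not tested.

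In whole testis, a level depends on the share of germ cells as well as on the RNA in each, and fewer cells of a type cannot be told apart from less RNA per cell. At P10.5, controls of the *Morc1* line had mean levels of *Boll* of 4.02 ± 0.150 RPKM in testis (SD, n = 3) and 11.9 ± 0.849 in sorted cells (n = 4). *Nanos1* was at 3.32 ± 0.120 and 7.60 ± 0.677, *Lin28b* at 5.37 ± 0.444 and 10.4 ± 0.315, and *Dazl* at 130 ± 2.95 and 229 ± 33.6 RPKM, all lower in testis. *Pum2* was higher in testis, at 38.8 ± 1.61 against 19.7 ± 1.25 RPKM, and so was *Dnd1* at 11.7 ± 0.819 against 7.31 ± 1.04. *Nanos2*, *Nanos3* and *Lin28a* had ratios of testis to sorted cells of 0.952, 1.18 and 1.30. The germ cell helicase *Ddx4* was at 45.6 in testis and 53.2 in sorted cells. Tissue and library kit cannot be told apart here, and no test was made.

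Between P10.5 and P14.5, when the first spermatocytes of the juvenile testis advance in meiotic prophase, 6 of the 9 genes were called in control testis, against 58.8% of all genes. *Boll* rose most, from 4.13, 4.09 and 3.85 RPKM at P10.5 to 13.4, 11.01 and 15.4 at P14.5 (1.71 on the log2 scale, SE 0.12, adjusted p = 3.93e-06). *Dazl* rose from 133, 131 and 127 RPKM to 240, 226 and 266 (0.90, SE 0.07, adjusted p = 4.84e-06). In both, each P14.5 library stood above each P10.5 library. *Lin28b* rose by 0.22 (SE 0.08, adjusted p = 0.0413), from 5.07, 5.88 and 5.17 RPKM to 6.35, 6.79 and 5.76, with overlap. *Nanos2* fell by 0.87 (SE 0.17, adjusted p = 0.00176), from 1.61, 1.87 and 1.78 RPKM to 0.957, 0.862 and 1.07. *Dnd1* fell by 0.28 (SE 0.07, adjusted p = 0.00831) and *Pum2* by 0.17 (SE 0.05, adjusted p = 0.0161).

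*Nanos1* (0.08, 95% interval -0.16 to 0.31), *Nanos3* (-0.17, -0.48 to 0.15) and *Lin28a* (0.03, -0.12 to 0.18) were not called in this step. The *Lin28b* call was lost without P10.5 *Morc1* +/+ replicate 1 (adjusted p = 0.163), P10.5 *Morc1* tg/+ replicate 3 (0.136), P14.5 replicate 1 (0.088) or P14.5 replicate 2 (0.125), and that of *Pum2* without P14.5 replicate 3 (0.0592), with ranges of 0.0111 to 0.163 and 0.00113 to 0.0592 over 10 alternatives. In the same step, in which 58.8% of all genes were called, all 10 early meiosis genes rose (median 2.09), 12 of 20 other RNA-binding genes rose and 4 fell (median 0.57), and *Ddx4* rose by 0.94. Of 9 Sertoli cell markers 7 fell and 1 rose (median -0.69).

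The effect of MORC1 loss on whole testis was measured at both ages. At P10.5, 4 of the 9 genes were called and all 4 were lower, against 15.3% of all genes called and 9.26% lower. The genes were *Nanos1*, *Dazl*, *Boll* and *Lin28b*. The median log2 fold change was -0.13 over the 9 genes and 0.01 over all. *Dazl* was at 133, 131 and 127 RPKM in controls and 87.2, 81.3 and 76.4 in *Morc1* tg/tg, a fall of 0.66 (SE 0.05, adjusted p = 4.31e-05). *Boll* was at 4.13, 4.09 and 3.85 against 2.29, 2.24 and 2.00 RPKM, a fall of 0.88 (SE 0.09, adjusted p = 0.000216). In these 2 DAZ genes, as in the other 2, the groups did not overlap. *Lin28b* went from 5.07, 5.88 and 5.17 RPKM to 3.46, 2.67 and 2.78, a fall of 0.85 (SE 0.10, adjusted p = 0.000433). *Nanos1* went from 3.20, 3.32 and 3.44 RPKM to 2.22, 1.94 and 1.87, a fall of 0.72 (SE 0.09, adjusted p = 0.000565). These 4 calls held without any 1 library, with *Morc1* tg/+ controls alone and with the preliminary libraries added and their batch as a term of the fit.

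The 5 others at P10.5 had small log2 fold changes. *Lin28a* was at 16.3, 17.5 and 17.8 RPKM in controls and 17.3, 16.4 and 15.0 in *Morc1* tg/tg (-0.07, 95% interval -0.21 to 0.07). *Dnd1* was at 12.0, 10.8 and 12.4 against 11.6, 10.52 and 9.72 RPKM (-0.13, -0.30 to 0.05), and *Pum2* at 37.8, 40.7 and 38.0 against 38.7, 37.4 and 37.9 RPKM (-0.02, -0.13 to 0.09). *Nanos2* (0.23, -0.08 to 0.55) and *Nanos3* (0.29, 0.01 to 0.57, adjusted p = 0.143) had all mutant libraries above all controls of the fit, at 1.874 to 2.34 against 1.61 to 1.866 RPKM and 4.97 to 6.22 against 4.27 to 4.76 RPKM. In the preliminary *Morc1* +/+ and *Morc1* tg/+ testes, *Dazl* was at 108 and 117, *Boll* at 3.66 and 3.86, *Nanos1* at 3.80 and 3.36 and *Lin28b* at 5.34 and 5.80 RPKM, all above the *Morc1* tg/tg libraries. *Nanos3* was at 3.68 and 3.93 RPKM in this pair, below all *Morc1* tg/tg libraries. *Nanos2* was at 1.844 and 1.904 RPKM, so the preliminary *Morc1* tg/+ testis lay above the lowest *Morc1* tg/tg library.

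At P14.5, 4 of the 9 genes were called, 3 lower and 1 higher, against 34.8% of all genes (20.1% lower and 14.8% higher). The medians were 0.04 over the 9 genes and 0.01 over all. *Boll* was at 13.4, 11.01 and 15.4 RPKM in *Morc1* tg/+ and 6.15, 4.66 and 4.64 in *Morc1* tg/tg, a fall of 1.36 (SE 0.15, adjusted p = 0.000337). *Dazl* was at 240, 226 and 266 against 145, 134 and 126 RPKM, a fall of 0.85 (SE 0.08, adjusted p = 0.000186). *Lin28b* was at 6.35, 6.79 and 5.76 against 5.38, 4.75 and 4.99 RPKM, a fall of 0.31 (SE 0.07, adjusted p = 0.0118). *Lin28a* was the one that rose, from 18.54, 18.503 and 15.8 RPKM to 23.03, 21.1 and 20.0 (0.29, SE 0.07, adjusted p = 0.0149). Mutant and control libraries did not overlap in any of the 4, and the *Lin28a* call was lost without *Morc1* tg/+ replicate 3 (0.23, adjusted p = 0.05315, range 0.000145 to 0.05315 over 10 alternatives).

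*Nanos1*, called at P10.5, had overlapping levels at P14.5, at 3.71, 3.87 and 2.97 RPKM in *Morc1* tg/+ and 3.64, 2.57 and 2.94 in *Morc1* tg/tg (-0.20, 95% interval -0.52 to 0.12). *Nanos3* (0.42, 0.06 to 0.78, adjusted p = 0.0692) and *Nanos2* (0.46, 0.03 to 0.89, adjusted p = 0.0924) again had all mutant libraries above all controls. So did *Dnd1* (0.15, -0.01 to 0.32, adjusted p = 0.136). *Pum2* stood at 0.04 (-0.07 to 0.15).

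Whether the effect of *Morc1* tg/tg differed between the ages was tested as an interaction, and 2 of the 9 genes were called, against 8.22% of all genes. *Lin28b* was less reduced at P14.5, by 0.52 on the log2 scale (SE 0.13, adjusted p = 0.0255), and *Lin28a* had the higher effect at P14.5, by 0.35 (SE 0.10, adjusted p = 0.0391). *Nanos1* had a difference of 0.51 (SE 0.17, adjusted p = 0.0852), which passed by DESeq2 (0.0264) and without P14.5 *Morc1* tg/tg replicate 2 (0.03145), within 0.0264 to 0.187 over 16 alternatives. *Boll* had one of -0.49 (SE 0.19, adjusted p = 0.13), which passed without P14.5 *Morc1* tg/+ replicate 2 (0.0294) or P14.5 *Morc1* tg/tg replicate 1 (0.0431), within 0.0294 to 0.338, and *Dazl* one of -0.20 (95% interval -0.41 to 0.02). Both calls rested on single libraries. The *Lin28b* and *Lin28a* calls were lost together without P10.5 *Morc1* tg/+ replicate 2 (adjusted p = 0.0615 and 0.08), P10.5 *Morc1* tg/tg replicate 2 (0.0671 and 0.0688) or replicate 3 (0.0777 and 0.108), or P14.5 *Morc1* tg/+ replicate 3 (0.0567 and 0.0741). That of *Lin28a* was also lost without P10.5 *Morc1* tg/+ replicate 3 (0.0705) or P14.5 *Morc1* tg/tg replicate 1 (0.0691). Over 16 alternatives the ranges were 0.00123 to 0.0777 for *Lin28b* and 0.00346 to 0.108 for *Lin28a*. Markers were called in the same interaction, against the 8.22% of all genes. Of 10 germ cell markers 1 was higher and 4 were lower at P14.5, and of 10 early meiosis genes 2 were higher and 5 lower. Of 6 pachytene genes 3 were lower, and of 9 Sertoli cell markers 1 was higher. Their part in the *Lin28a* and *Lin28b* calls was not tested.

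The markers of cell types moved with these results. The shares of all genes to set beside their counts were 9.26% lower and 6.08% higher at P10.5 and 20.1% lower and 14.8% higher at P14.5. In *Morc1* tg/tg testis at P10.5, 6 of 10 germ cell markers fell and none rose (median -0.33), and their summed level was 273 to 280 RPKM in controls and 186 to 212 in mutants. At P14.5, 6 fell and 1 rose (median -0.54), with sums of 684 to 875 and 291 to 336 RPKM. *Ddx4* fell by 0.34 and 0.95. All 10 early meiosis genes fell at both ages (medians -1.02 and -1.77), with *Dmc1* at -1.53 and *Stra8* at -1.46 at P10.5 and *Spo11* at -2.58 and *Hormad1* at -2.19 at P14.5. Of 9 Sertoli cell markers, 4 rose at P10.5 (median 0.15) and all 9 at P14.5 (median 0.47), and their sums were 3469 to 3729 against 3901 to 4373 RPKM at P10.5 and 3262 to 3599 against 4286 to 5254 RPKM at P14.5. Of the other RNA-binding genes, 10 of 20 fell and none rose at P10.5 (median -0.29), and 13 fell and 4 rose at P14.5 (median -0.63). The part of cell composition in the falls of *Dazl*, *Boll*, *Lin28b* and *Nanos1* was not tested. In sorted P10.5 cells the log2 fold changes of these 4 genes were 0.07, -0.27, -0.24 and -0.56, of which that of *Nanos1* was called.

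**Figure D2:**
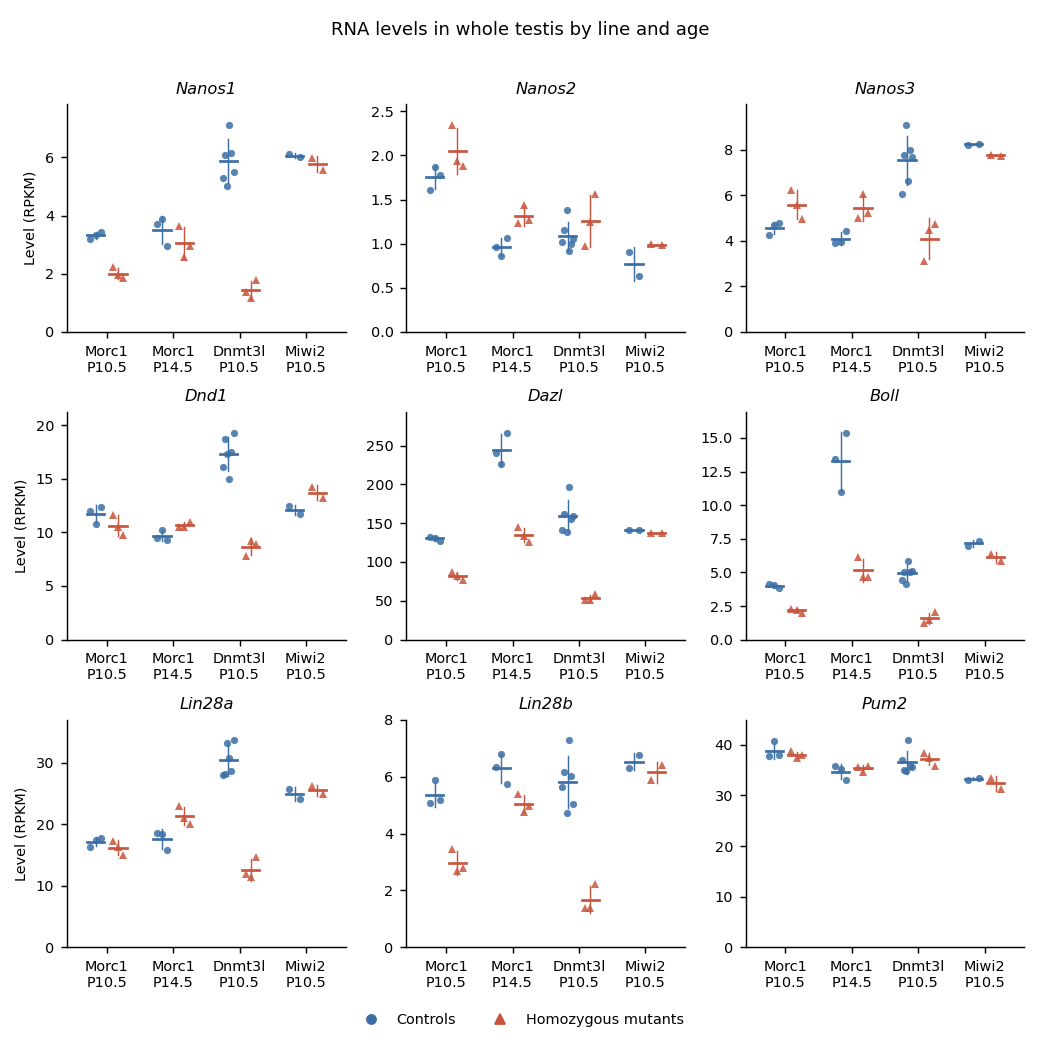
RNA level in RPKM (linear axes from 0) of the 9 genes in whole testis, by line and age on the horizontal axis (*Morc1*, 2 ages, and *Dnmt3l* and *Miwi2*, P10.5). Points are libraries, controls in blue and homozygous mutants in red, with group mean and SD as lines, and the preliminary libraries are not drawn. *Dazl* and *Boll* are lower in *Morc1* and *Dnmt3l* mutants, *Lin28a* and *Dnd1* are lower in *Dnmt3l* mutants, and *Pum2* stays between 31.3 and 40.8 RPKM.

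For comparison, the same genes were measured in testis without DNMT3L at P10.5. There, 7 of the 9 genes fell, against 53.9% of all genes called and 29% lower. The exceptions were *Nanos2* and *Pum2*. The median log2 fold change was -1.23 over the 9 genes and -0.00 over all. *Nanos1* was at 5.30, 6.08 and 5.02 RPKM in *Dnmt3l* +/+, 7.11, 6.16 and 5.50 in *Dnmt3l* +/- and 1.38, 1.18 and 1.80 in *Dnmt3l* -/-, a fall of 1.97 or 3.91-fold (SE 0.14, adjusted p = 8.42e-07). *Lin28b* was at 5.65, 6.15 and 4.71, then 7.28, 6.02 and 5.03, then 1.40, 1.40 and 2.21 RPKM in the same order, a fall of 1.75 (SE 0.17, adjusted p = 5.82e-06). The *Dnmt3l* -/- libraries lay below all 6 controls in both genes and in the other 5 that fell.

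*Boll* was at 4.44, 5.04 and 4.16 RPKM in *Dnmt3l* +/+, 5.86, 5.05 and 5.10 in *Dnmt3l* +/- and 1.27, 1.43 and 2.04 in *Dnmt3l* -/-, and fell by 1.60 (SE 0.15, adjusted p = 5.84e-06). *Dazl* was at 141, 162 and 139, then 196, 156 and 160, then 50.6, 51.0 and 58.2 RPKM, and fell by 1.53 (SE 0.10, adjusted p = 5.31e-07). *Lin28a* was at 28.0, 28.2 and 33.2, then 30.8, 28.7 and 33.7, then 11.9, 11.4 and 14.6 RPKM, and fell by 1.23 (SE 0.10, adjusted p = 1.3e-06). *Lin28a*, not called in *Morc1* tg/tg testis at P10.5, thus fell 2.34-fold here. *Dnd1* was at 15.0 to 19.3 RPKM in the 6 controls and 7.77, 9.23 and 8.95 in *Dnmt3l* -/-, and fell by 0.96 (SE 0.09, adjusted p = 5.71e-06). *Nanos3* was at 6.06 to 9.07 RPKM in controls and 3.09, 4.48 and 4.72 in *Dnmt3l* -/-, and fell by 0.83 (SE 0.16, adjusted p = 0.00102). All 7 calls held without any 1 library and with *Dnmt3l* +/+ or +/- controls alone.

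*Nanos2* was at 0.911 to 1.38 RPKM in controls and 0.977, 1.24 and 1.56 in *Dnmt3l* -/- (0.26, 95% interval -0.13 to 0.65). *Pum2* was at 34.7 to 40.8 RPKM in controls and 38.3, 37.4 and 35.8 in *Dnmt3l* -/- (0.07, -0.06 to 0.21). The summed germ cell markers were at 360 to 434 RPKM in controls and 136 to 168 in *Dnmt3l* -/-, with 9 of 10 lower and 1 higher (median -1.21), and *Ddx4* fell by 0.99. Sertoli cell markers were 7 of 9 higher (median 0.71), at sums of 2772 to 3794 and 4367 to 4799 RPKM. All 10 early meiosis genes fell (median -1.60), as did all 6 reported targets of NANOS2 or DAZL (median -1.60), which overlap that list and the marker list. Of 20 other RNA-binding genes 13 fell and 1 rose (median -0.43), with *Gm1564* at -2.39 and *Cpeb1* at -1.81. Of the CCR4-NOT genes 5 rose and 3 fell (median 0.02), and of the let-7 genes 4 rose and 6 fell (median 0.01), with *Igf2bp1* at -0.999 and *Trim71* at -0.80. With 53.9% of all genes called (24.9% higher and 29% lower), the CCR4-NOT count was near that share. The part of cell composition was not tested.

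The difference between the effects of *Morc1* tg/tg and *Dnmt3l* -/- at P10.5 was itself tested, and 7 of the 9 genes were called, all with the more negative effect in *Dnmt3l* -/-, against 17.6% of all genes called. The difference was 1.20 for *Nanos1* (SE 0.19, adjusted p = 0.000381), 1.11 for *Lin28a* (SE 0.13, adjusted p = 2.45e-05) and 1.08 for *Nanos3* (SE 0.22, adjusted p = 0.00332). It was 0.86 for *Lin28b* (SE 0.22, adjusted p = 0.0144), 0.82 for *Dazl* (SE 0.13, adjusted p = 0.000587) and 0.78 for *Dnd1* (SE 0.13, adjusted p = 0.000725). It was 0.67 for *Boll* (SE 0.19, adjusted p = 0.0256). The median over the 9 genes was 0.82, and over all genes -0.03. The interaction of *Ddx4* was 0.60 and of 10 germ cell markers 8 had a positive and 1 a negative called interaction (median 0.85), so the difference was shared by marker genes. Of 10 early meiosis genes, 4 had a positive and none a negative called interaction (median 0.62). Sertoli cell markers went the other way, with 6 of 9 negative and none positive (median -0.49). The part of these markers was not tested. Line, background and batch cannot be told apart in this comparison. The *Boll* call was lost without *Morc1* +/+ replicate 1 (adjusted p = 0.0512), *Morc1* tg/+ replicate 3 (0.0608), *Morc1* tg/tg replicate 1 (0.064) or 2 (0.0563), or *Dnmt3l* -/- replicate 1 (0.0578) or 2 (0.0736), within 0.00207 to 0.0736 over 19 alternatives.

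In testis labelled *Miwi2* -/-, edgeR called 0 of the 9 genes, against 1.23% of all genes, with 2 at an unadjusted p under 0.05 and 0 by DESeq2. The median log2 fold change was -0.06 over the 9 genes and 0.01 over all. *Boll* was at 6.95 and 7.36 RPKM in *Miwi2* +/- and 6.40 and 5.84 in *Miwi2* -/- (-0.24, SE 0.09, adjusted p = 0.154), and *Dnd1* at 12.4 and 11.7 against 14.2 and 13.2 RPKM (0.17, SE 0.07, adjusted p = 0.236). The groups did not overlap in either gene. Nor did they in *Dazl*, *Nanos1* (6.01 to 6.12 and 5.58 to 5.97 RPKM), *Nanos2* (0.634 to 0.903 and 0.983 to 0.992) or *Nanos3* (8.22 and 7.74 to 7.75). With 2 libraries in each group, such separation is easily met. With a replicate block *Boll* and *Dnd1* were called (adjusted p = 0.00215 for *Boll*, range 0.00215 to 0.482 over 8 alternatives, and 0.0215 for *Dnd1*, range 0.0215 to 0.725). That fit left little from which to estimate the spread. *Dazl* was at 142 and 141 RPKM in *Miwi2* +/- and 137 in both *Miwi2* -/- libraries (-0.06, 95% interval -0.23 to 0.11). *Lin28a* was at 25.8 and 24.1 against 26.2 and 24.9 RPKM (0.01, -0.14 to 0.17). Germ cell markers had sums of 406 to 408 RPKM in *Miwi2* +/- and 395 to 404 in *Miwi2* -/-, and edgeR called none of the 10, with 4 at an unadjusted p under 0.05 and 3 by DESeq2. Sertoli cell sums were 2009 to 2179 and 2327 to 2392 RPKM in the same order, and Leydig cell sums 362 to 396 and 313 to 329. Peritubular, endothelial and blood cell sums were also higher in *Miwi2* -/- without overlap, and pluripotency sums lower. Of 9 Sertoli cell markers edgeR called none, and of 6 Leydig cell markers 1 lower, against 1.23% of all genes. The part of these markers was not tested.

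**Figure D3:**
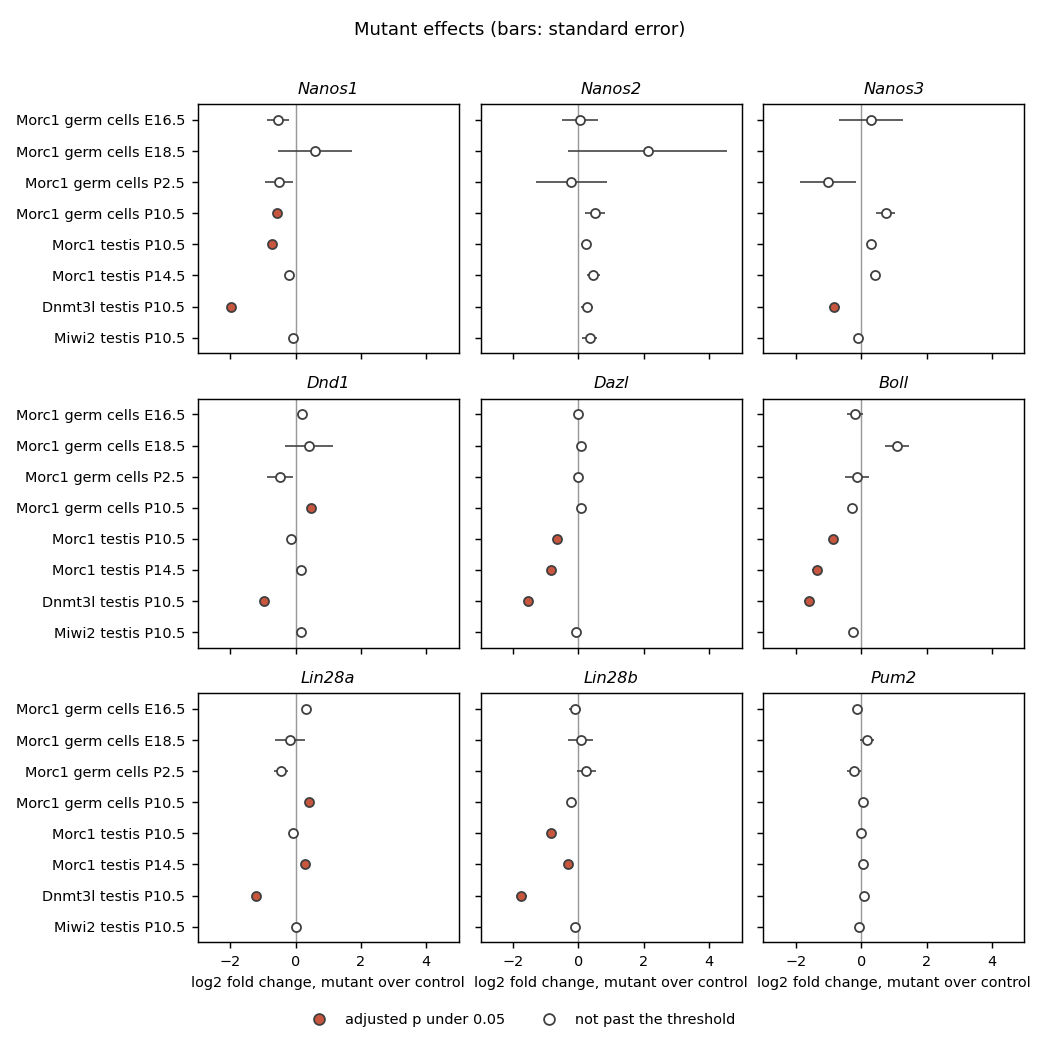
Log2 fold change with its standard error for each of the 9 genes between homozygous mutants and controls, in sorted germ cells of the *Morc1* line and in whole testis of the *Morc1*, *Dnmt3l* and *Miwi2* lines. Filled points passed the threshold, the vertical line marks 0, and *Nanos3* at E18.5 is not drawn because both mutant libraries held no read. The *Dnmt3l* estimates of 7 genes lie between -1.97 and -0.83, while *Pum2* lies between -0.22 and 0.17 in all comparisons.

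*Dazl* and *Boll*, which fell in whole testis of *Morc1* and *Dnmt3l* mutants, as germ cell markers did, have differing promoters. In sorted *Morc1* tg/tg germ cells edgeR called neither with each stage fitted by itself. Promoter windows of 250 bases before the annotated start, from RefSeq on GRCm38.p6, were read for 8 genes. The files use mm9, so these coordinates are not those of the counts. *Dazl* (mm9 chr17:50418719-50432924, minus strand) has 20 CpG dinucleotides in its window, *Boll* (mm9 chr1:55305502-55420313, minus strand) 11 before its upstream start and 33 before the downstream one. Over 32851 promoters the median was 6 and the upper 10% began at 25. The windows are shown because their CpG content differs, with each CG in capitals.
Dazl, GRCm38.p6 chr17:50293621-50293870, minus strand: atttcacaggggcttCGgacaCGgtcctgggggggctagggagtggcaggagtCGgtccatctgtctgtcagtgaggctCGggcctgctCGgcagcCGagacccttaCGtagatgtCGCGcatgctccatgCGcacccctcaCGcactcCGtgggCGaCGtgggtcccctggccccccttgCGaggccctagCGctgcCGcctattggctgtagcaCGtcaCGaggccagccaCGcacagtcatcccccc
Boll, GRCm38.p6 chr1:55363754-55364003, minus strand: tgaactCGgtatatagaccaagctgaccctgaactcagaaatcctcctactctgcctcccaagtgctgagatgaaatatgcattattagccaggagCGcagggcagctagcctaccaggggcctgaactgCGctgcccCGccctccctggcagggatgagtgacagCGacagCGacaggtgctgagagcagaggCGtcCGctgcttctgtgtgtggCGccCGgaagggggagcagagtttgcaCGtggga

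Among the others, *Nanos1* had 25 CpGs, *Pum2* 30 to 36 over its 3 starts, *Lin28a* 7, *Lin28b* 6, *Nanos3* 3 and *Nanos2* 0. *Nanos2* thus had the fewest. The letters CACGTG were searched on both strands, as were the letters GGGCGG and the letters CCAAT. The first and the second of these motifs each hold a CpG. The motif CACGTG occurred once in the window of *Boll* before its upstream start and once in that of *Lin28b*, and in 6.02% of all promoters. The motif GGGCGG was found in windows of *Nanos1*, *Nanos3*, *Boll* and *Pum2* and in 32.7% of all promoters, and CCAAT in those of *Nanos1*, *Nanos2*, *Dazl*, *Boll* and *Lin28b* and in 33.8%. A match describes letters only. *Lin28a* and *Boll* also overlap other genes, *Gm13061* by 695 bases and *Gm8292* by 517, on the opposite strand, and reads there cannot be told apart without strand.

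LIN28 proteins act on let-7, so the let-7 family was counted in the 4 small RNA libraries of whole testis, 1 each of *Morc1* tg/+ and *Morc1* tg/tg at E16.5 (pooled testes) and P10.5. Reads identical to 1 of 1674 mature mouse miRNAs (RefSeq, GRCm38.p6) were counted, and 11 of these share the let-7 seed, bases 2 to 8. The 4 members most counted at P10.5 are printed to show how members that share 1 seed are told apart. The seed is in capitals, and bases after it differ between members.
let-7a: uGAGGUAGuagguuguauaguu
let-7c: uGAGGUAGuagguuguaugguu
let-7f: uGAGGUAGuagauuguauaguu
let-7g: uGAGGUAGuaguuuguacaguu

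At E16.5, let-7 made up 28.5% of 6792573 miRNA reads in *Morc1* tg/+ and 24.0% of 3948284 in *Morc1* tg/tg. At P10.5 it made up 37.6% of 5116221 and 36.6% of 4887145. The exact binomial 95% intervals (28.467 to 28.535, 23.957 to 24.042, 37.541 to 37.625 and 36.56 to 36.645%) cover counting error only, and with 1 library a group there is no test of genotype or age. In both genotypes the share was higher in the P10.5 library than in the E16.5 library. let-7c was the most counted member at E16.5, with 7.87% of miRNA reads in *Morc1* tg/+ and 7.15% in *Morc1* tg/tg, followed by let-7a with 7.67% and 6.45%. At P10.5, let-7f led with 12.4% and 13.4%, against 5.00% and 4.06% at E16.5. let-7g was at 1.81% and 1.12% at E16.5 and at 3.82% and 3.73% at P10.5. In both genotypes the most counted member thus differed between the ages. Members with low counts were miR-98 (0.115 to 0.167%) and let-7k (at most 2 reads a library). miR-1961 had 0 reads, but at 17 bases it is shorter than the RNA fraction that the paper's methods cut from the gel. Its count therefore sets no limit on its share. Whole testis also holds somatic cells, and the cells that carried the let-7 reads were not resolved.

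**Figure D4:**
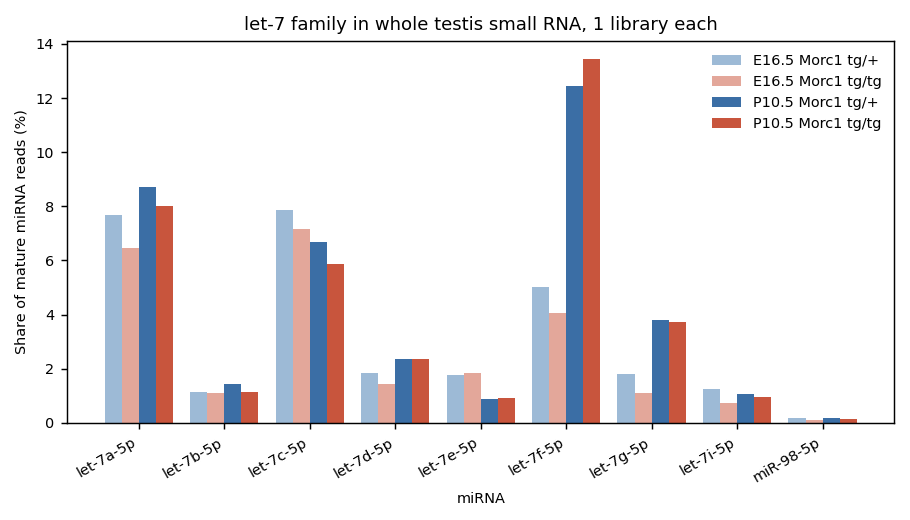
Share of mature miRNA reads (percent, linear axis from 0) taken by each let-7 family member in whole testis small RNA at E16.5 and P10.5, 1 library for each genotype and age. let-7f is at 5.00 and 4.06% at E16.5 and at 12.4 and 13.4% at P10.5, and no error bar is drawn because there are no replicates. The members let-7k and miR-1961, at or near 0, are not drawn.

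Last, the genes whose levels followed each of the 9 most closely over the 20 sorted libraries were listed, by Pearson's r of log2(RPKM + 1) among 12870 genes. Stage, gate and depth differ together over these libraries, so the values describe them only. The first gene was *Rbm39* for *Pum2* (r = 0.968), *Sec23b* for *Nanos1* (0.956), *Mbnl3* for *Lin28b* (0.947), *Puf60* for *Dnd1* (0.944) and *Ip6k1* for *Lin28a* (0.939). It was *Acap2* for *Dazl* (0.932), *Tmem30a* for *Boll* (0.920), *Adamts10* for *Nanos3* (0.886) and *9630033F20Rik* for *Nanos2* (0.820). *Nanos2* and *Nanos3*, with the fewest reads, had the lowest values.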

How the data were processed

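Each RNA-seq library came from 1 mouse, by the TruSeq v2 kit for whole testis and by the Ovation Human FFPE kit with rRNA depletion for sorted cells. The authors trimmed reads, discarded reads matching rRNA and used uniquely mapped reads on mm9. They deposited raw counts per gene, which HTSeq made with default settings per the paper's methods, beside the RPKM values the authors computed from exon length and mapped reads. The submitters' processing notes name Bowtie, SAMtools and HTSeq. The small RNA files hold the deposited read sequences after the authors removed adaptors. Other assays of the study were not analysed here.

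Counts were tested in R 4.3.3 with edgeR 4.0.16 (TMM, filterByExpr, quasi-likelihood test, Benjamini-Hochberg over all genes tested, threshold 0.05), in 14 comparisons. Stage steps of control germ cells came from 1 fit over the *Morc1* tg/+ libraries, so neighbouring steps share libraries, as do these steps and the mutant comparisons, and P10.5 control testes serve in several comparisons. DESeq2 1.42.0 was an alternative, with a local dispersion trend, chosen after the parametric trend was seen to sit at the edge of convergence at E18.5, where it could give fewer calls. The others were RLE size factors, no filter on low counts, a replicate block, other control sets, 1 fit over all 20 sorted libraries and each replicate left out. The scripts were tested on simulated data. No pair of libraries of a group agreed within sampling noise (chi-square test over genes). Depth limits the sorted E18.5 and P2.5 groups most, and intervals of shares are exact binomial at 95% and cover counting error only.

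The 9 genes and all lists were chosen with earlier results of these data known. All 9 were fitted in every comparison whatever their values, but not every value is printed. Also named were the targeted genes, up to 4 called genes with the largest log2 fold change per list and comparison, and the 3 genes most like each of the 9, of which 1 is printed. Lists were counted for CCR4-NOT, let-7 processing and targets, other germ cell RNA-binding genes, reported NANOS2 or DAZL targets, and markers of germ cells, prospermatogonia, early meiosis, pachytene, Sertoli, Leydig, peritubular, endothelial, macrophage and blood cells. Promoters and miRNAs were read in Python 3.11.15 from RefSeq tables.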

Additional observations from a re-analysis of the deposited data

Results flagged for a closer look

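The effect of *Morc1* tg/tg on whole testis differed between P14.5 and P10.5, by an interaction test, for *Lin28a* (0.35 on the log2 scale) and *Lin28b* (0.52). At P10.5, the effect of *Morc1* tg/tg differed from that of *Dnmt3l* -/- for *Nanos1* (1.20), *Nanos3* (1.08), *Dnd1* (0.78), *Dazl* (0.82), *Boll* (0.67), *Lin28a* (1.11) and *Lin28b* (0.86), in each case with the more negative effect in *Dnmt3l* -/-. These contrasts share the P10.5 control and *Morc1* tg/tg testes.

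In other pairs of comparisons, every mutant library lay on 1 side of its controls in the first and on the opposite side in the second, and the difference was not tested. For *Lin28a* in germ cells, the log2 fold change at E16.5 exceeded that at P2.5 by 0.77, and the P2.5 value minus that at P10.5 was -0.84. The P2.5 germ cell value of *Lin28a* minus its P14.5 testis value was -0.73. For *Boll*, the E18.5 germ cell value exceeded that in P10.5 germ cells by 1.37, that in P10.5 testis by 1.98 and that in P14.5 testis by 2.45. *Nanos3* was at least 14.1-fold lower in *Morc1* tg/tg germ cells at E18.5, where they held 0 reads (a bound that was at least 6.97-fold against control replicate 1 alone), while all mutant libraries were above the controls in germ cells at P10.5 and in testis at P10.5 and P14.5. The *Nanos3* effect of *Morc1* tg/tg in P10.5 testis exceeded that in *Miwi2* testis by 0.40, and the *Dnd1* effect of *Dnmt3l* -/- minus that in *Miwi2* testis was -1.12. These differences were not tested, and sorted cells and testis also differ in library kit. Of 9 checks for a library far from the rest of a group of 4 or more, none found one. Only *Morc1* tg/+ germ cells at P10.5 had 4 libraries, so all the smaller groups went unchecked.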

How the results depend on the processing

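Direction was checked only for the 61 gene results with an unadjusted p under 0.05. For these, all 746 values under an alternative had the sign of the main analysis. The alternatives reuse the same libraries, and the signs of the other gene results were not checked. The count of the 9 genes called moved with several settings. By DESeq2 it was 1 at E18.5 (*Boll*), 5 in P10.5 germ cells and 5 for E18.5 to P2.5, where *Nanos2* and *Boll* were added. It was 4 against 3 for E16.5 to E18.5 (*Pum2* added), 5 against 4 for P2.5 to P10.5 (*Nanos3* added) and 3 against 2 in the age interaction (*Nanos1* added). With all 20 sorted libraries in 1 fit it was 2 at E18.5 (*Nanos3* and *Boll*) and 0 in P10.5 germ cells. With a replicate block it was 2 in *Miwi2* testis (*Dnd1* and *Boll*) and 2 for P2.5 to P10.5, where *Nanos1* (adjusted p = 0.0539) and *Lin28a* (0.0528) were lost, and the block also ended the calls of *Nanos3* from E16.5 to E18.5 (0.0701) and *Dnd1* in P10.5 germ cells (0.0608). In the comparisons with 3 or more same-numbered pairs, the libraries did not all deviate together (correlations -0.428 to 0.348), so the numbers were not taken as pairs. In *Miwi2* testis the correlation was 0.321 for both pairs. With 2 libraries in each group both pairs must share 1 value, so it cannot show whether those libraries were paired. Leaving out 1 library gave 2 to 6 called genes from E16.5 to E18.5, with 6 without E18.5 *Morc1* tg/+ replicate 1, 3 to 5 from E18.5 to P2.5, with 5 without P2.5 replicate 1, 2 to 4 from P2.5 to P10.5, 5 to 6 in the testis step, 0 to 3 in the age interaction, 6 to 7 in the interaction of lines, 2 to 3 in P10.5 germ cells, 3 to 4 in P14.5 testis, 4 in P10.5 *Morc1* testis, 7 in *Dnmt3l* testis and 0 elsewhere. Without a filter on low counts, *Lin28b* was lost in the testis step (0.0615) and *Boll* was called from E18.5 to P2.5 (0.0468). When miRNA reads were matched on their first 18 bases, the let-7 shares were 19.7 and 16.2% at E16.5 and 32.3 and 31.3% at P10.5 in *Morc1* tg/+ and tg/tg. Depth limits *Nanos2* and *Nanos3* in sorted cells most.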

Other observations

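The 6 reported mRNA targets of NANOS2 or DAZL, of which some also stand in the germ cell and early meiosis marker lists, were counted in the remaining comparisons. Over all genes, edgeR called 18.7% from E16.5 to E18.5, 39.1% from E18.5 to P2.5, 27.6% from P2.5 to P10.5, 12.2% in *Morc1* tg/tg germ cells at P10.5, and 15.3% and 34.8% in *Morc1* tg/tg testis at P10.5 and P14.5. In control germ cells, 2 of them rose and none fell from E16.5 to E18.5 (median log2 fold change 0.13), and 4 rose and none fell from E18.5 to P2.5 (0.67), with *Sohlh2*, a transcription factor of early spermatogonia, at 3.94 and *Stra8* at 2.08. From P2.5 to P10.5, 3 rose and 2 fell, among the latter *Tex19.1* (-1.09) and *Ddx4* (-0.50). In *Morc1* tg/tg germ cells at P10.5, *Stra8* (-1.08) and the synaptonemal complex gene *Sycp3* (-0.67) fell while *Ddx4* rose (0.23). In *Morc1* tg/tg testis all 6 fell at P10.5 (median -0.67) and 5 fell at P14.5 (median -0.69). In control testis 5 of 6 rose from P10.5 to P14.5 (median 0.82), against 58.8% of all genes called. The *Morc1* log2 fold change was higher at P14.5 than at P10.5 for 1 and lower for 2 of the 6, against 8.22% of all genes, and at P10.5 it was higher than the *Dnmt3l* one for all 6, against 17.6%. For the *Morc1* comparisons of germ cells up to P2.5 edgeR called 0 of the 6, with 0 at an unadjusted p under 0.05 and 0 by DESeq2 at each stage, and in *Miwi2* -/- testis it called 0, with 1 and 1.

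Of 4 measured pluripotency genes of prospermatogonia, 3 fell from E16.5 to E18.5 (against 18.7% of all genes called). From E18.5 to P2.5, 3 fell and *Pou5f1* rose (1.17), against 39.1% of all genes. All 4 fell from P2.5 to P10.5, with *Utf1* at -3.06, against 27.6%. *Pou5f1* (0.71) and *Dppa4* (0.47) rose in *Morc1* tg/tg germ cells at P10.5, against 6.43% of all genes higher. In *Dnmt3l* -/- testis *Utf1* (-2.20), *L1td1* (-1.49) and *Pou5f1* (-1.03) fell and *Dppa4* rose (0.62), against 29% of all genes lower and 24.9% higher. Of the 4, edgeR also called 1 higher in *Morc1* tg/tg testis at P14.5, against 14.8% of all genes higher. It called 1 lower in *Miwi2* -/- testis (against 1.23% called) and 2 higher in control testis from P10.5 to P14.5 (against 58.8% called). *Pou5f1* also drives the reporter used for sorting up to P2.5. Pachytene genes were 5 of 6 higher at P14.5 than at P10.5 in control testis (against 58.8% of all genes called). They were 5 of 6 lower in *Morc1* tg/tg testis at P14.5 (against 20.1% of all genes lower). *Piwil1* was among them, at 4.19 and -3.95. In *Dnmt3l* -/- testis 4 of 5 were lower, against 29% of all genes.

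The other somatic lists were counted in the same way. In *Morc1* tg/tg testis at P10.5, 1 of 6 Leydig, 2 of 6 peritubular, 2 of 4 endothelial, 2 of 4 macrophage and 0 of 3 blood cell markers were higher and none was lower, against 6.08% of all genes higher. At P14.5 edgeR called none of these, with 3 in all at an unadjusted p under 0.05 and 1 by DESeq2. In *Dnmt3l* -/- testis the counts were 1, 3, 2, 1 and 0 in the same order, all higher, against 24.9% of all genes. In *Morc1* tg/tg germ cells at P10.5, 2 of 5 peritubular markers were higher and 1 of 2 blood markers was lower, against 6.43% of all genes higher and 5.79% lower. The median log2 fold change of these 5 peritubular markers was -0.50, opposite in sign to the 2 called. The sum over all 6 was 11.9 to 13.5 RPKM in *Morc1* tg/+ and 13.7 to 16.8 in *Morc1* tg/tg. There edgeR called 0 of 1 Leydig, 0 of 4 endothelial and 0 of 2 macrophage markers, with 0, 2 and 0 at an unadjusted p under 0.05 and 0, 1 and 0 by DESeq2. In *Miwi2* -/- testis 1 of 6 Leydig markers fell and 1 of 4 blood cell markers rose, against 1.23% of all genes called. In control testis from P10.5 to P14.5, 5 of 6 peritubular and 2 of 4 endothelial markers fell, 3 of 4 macrophage markers rose, and 1 of 6 Leydig markers rose and 2 fell, against 58.8% of all genes called. Between E16.5 and E18.5 in control germ cells, 1 of 4 endothelial markers rose. The *Morc1* log2 fold change at P10.5 was lower than the *Dnmt3l* one for 1 of 4 endothelial markers, against 17.6% of all genes.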
